A study of Mus musculus with 14 samples.

Results

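The genes described here are 35 genes of DNA replication and mitosis, taken from the 49671 genes counted in freshly sorted mouse satellite cells, which are muscle stem cells. They were chosen by symbol, with no measured value in the rule but with earlier results of these data known. All 35 were found in both count tables. By role, 15 encode the replication machinery, 5 are grouped as G1/S regulators, and 15 act in mitosis. The G1/S group holds regulators of the passage from G1 to S phase, and also Ccna2, whose cyclin acts in S and G2 phase. The 14 libraries were made from 1000 cells each, sorted from unstimulated muscle (triceps, pectoral and hind limb) of the C57BL/6J strain. In the first dataset FosGFP animals aged 4 months gave 4 libraries of cells with the GFP signal, labelled FosGFP+, and 4 of cells without it, labelled FosGFP-. The second holds 3 libraries labelled FoscKO, a conditional knockout of Fos, which encodes a transcription factor of AP-1, and 3 labelled Control, aged 6 months. The gate took cells with B1-Integrin and CXCR4 on their surface and left out those with Sca1, Ter119, CD11b, CD31 or CD45. For the second dataset the series text names FosGFP+ cells in FoscKO and Control alike. It gives 4 mice for the first dataset and 3 for the second, without saying which mouse gave which library, so that p-values measure the spread between libraries, part of which may be technical. The reporter construct and the Cre line and timing of the Fos deletion are not given in the sources used here.

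Replication origins are licensed in G1 phase, when Cdc6 and Cdt1 help to load the helicase made of the Mcm2 to Mcm7 proteins onto DNA. Cdc45 and the GINS complex, to which Gins2 belongs, activate that helicase, Pcna is the sliding clamp of the polymerases, and the products of Rrm1, Rrm2, Tyms and Tk1 supply deoxynucleotides. Mitosis is driven by Cdk1 with its B-type cyclins and by the Aurora and Polo kinases, and ends when Cdc20 directs the anaphase-promoting complex to its targets. In adult muscle at rest most satellite cells are in G0, a reversible arrest outside the cell cycle. Many replication genes carry sites for E2F factors in their promoters. Many mitosis genes carry the cell cycle genes homology region, or CHR, which MuvB-type complexes bind, and CCAAT boxes, which NF-Y binds.

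The promoters of the 4 genes that passed the test between FosGFP+ and FosGFP- are printed to show how those of replication and of mitosis genes differ. Mcm7 and Pcna were higher, and Mki67 and Cdc20 lower. Each sequence is from RefSeq (GRCm38.p6) and runs from 250 bases before the start site to 50 bases from it on, 5′ to 3′ on the gene's strand. Capitals mark matches, on either strand, to an E2F motif (TTTCCCGC, TTTGGCGC, TTTCGCGC or TTTGCCGC), the CHR (TTTGAA) or CCAAT. The windows are chr5:138171834-138172133 for Mcm7, chr2:132253131-132253430 for Pcna, chr7:135716330-135716629 for Mki67 and chr4:118437294-118437593 for Cdc20, all on the minus strand.
Mcm7: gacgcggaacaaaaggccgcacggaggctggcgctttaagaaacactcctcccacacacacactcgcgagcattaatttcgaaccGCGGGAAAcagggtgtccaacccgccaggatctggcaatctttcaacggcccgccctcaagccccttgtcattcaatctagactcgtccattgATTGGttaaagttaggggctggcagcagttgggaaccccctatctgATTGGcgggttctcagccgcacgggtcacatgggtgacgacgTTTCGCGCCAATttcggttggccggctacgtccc
Pcna: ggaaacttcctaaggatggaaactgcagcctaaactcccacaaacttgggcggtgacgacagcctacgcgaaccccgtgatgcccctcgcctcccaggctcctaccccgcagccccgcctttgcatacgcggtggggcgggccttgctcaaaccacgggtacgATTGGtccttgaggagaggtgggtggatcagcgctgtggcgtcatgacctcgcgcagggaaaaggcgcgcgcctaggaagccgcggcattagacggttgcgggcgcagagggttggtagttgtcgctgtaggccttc
Mki67: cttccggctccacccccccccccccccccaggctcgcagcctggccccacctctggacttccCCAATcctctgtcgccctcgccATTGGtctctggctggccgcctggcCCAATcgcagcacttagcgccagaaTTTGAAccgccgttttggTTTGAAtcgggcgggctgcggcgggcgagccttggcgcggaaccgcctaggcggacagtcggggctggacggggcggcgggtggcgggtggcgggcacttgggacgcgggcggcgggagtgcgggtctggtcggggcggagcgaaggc
Cdc20: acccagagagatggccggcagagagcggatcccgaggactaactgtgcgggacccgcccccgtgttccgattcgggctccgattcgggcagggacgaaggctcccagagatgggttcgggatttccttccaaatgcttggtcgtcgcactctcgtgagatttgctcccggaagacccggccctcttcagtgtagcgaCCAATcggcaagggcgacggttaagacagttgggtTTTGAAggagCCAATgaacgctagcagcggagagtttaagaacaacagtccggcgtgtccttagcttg
The Mcm7 window held 2 E2F matches, of which the one that begins at position 17 overlaps a CCAAT match that begins at position 24, counted from the start site as 1. That window is 1 of 2 listed for Mcm7 and lies 539 bases from the start of the gene in GENCODE. Pcna had 1 CCAAT match and none of the E2F or CHR letters in this window. Mki67 held 2 CHR and 3 CCAAT matches, and Cdc20 held 1 CHR and 2 CCAAT matches. The CHR of Cdc20 began 18 bases before the start site, and those of Mki67 began 116 and 98 bases before it.

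Of the 35 genes, 30 had a promoter in the RefSeq table. An E2F match was present in 6 of 13 replication genes (46.2%) and in 1 of 14 mitosis genes (7.14%), against 2.26% of all 32851 promoters of the same length. The 6 were Mcm3, Mcm5, Mcm6, Mcm7, Cdc6 and Cdt1, and the mitosis gene was Cdk1. The CHR letters were in 11 of 14 mitosis genes (78.6%) and 2 of 13 replication genes (15.4%), against 17.9% of all promoters. A CCAAT match was in 13 of 14 mitosis genes (92.9%) and 9 of 13 replication genes (69.2%), against 37.4% of all. Both CHR and CCAAT were in 11 of 14 mitosis genes and in 2 of 13 replication genes, Mcm2 and Cdc45, against 6.95% of all promoters. A match is a match of letters and not a measured site.

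**Figure D1:**
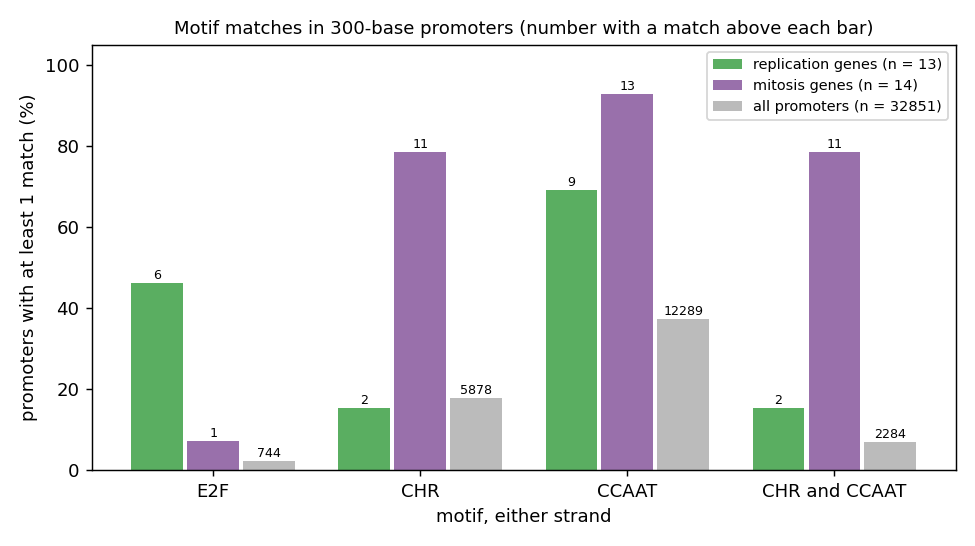
Share of promoters with at least 1 match to each motif on either strand (percent), for 13 replication genes, 14 mitosis genes and all 32851 promoters, with the number of promoters with a match above each bar. E2F letters were in 46.2% of the replication promoters and 7.14% of the mitosis promoters, and CHR letters in 15.4% and 78.6%.

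Counts in genes ran from 2652230 in a FosGFP- library to 10241655 in a FoscKO library. Fos mRNA itself was lower in the libraries labelled FosGFP+, at 3098 to 5398 CPM against 7908 to 12880 CPM in FosGFP-, where CPM are counts scaled to the library size after TMM. Directions are therefore between labels. In libraries 1, 2 and 3 labelled FoscKO, Fos stood at 8442, 2876 and 3805 CPM, against 4733 to 5044 CPM in Control, so that FoscKO 1 goes against its label, and which exons the deletion removes is not given in the sources used here. Summed over 10 satellite cell markers the level was 7916 to 11460 CPM in FosGFP+, 5070 to 7337 in FosGFP-, 6539 to 11130 in FoscKO and 6088 to 8186 in Control. Between FosGFP+ and FosGFP-, edgeR called 2 of the 10 higher, Sdc4 at 5416 against 2069 CPM and Vcam1 at 1940 against 842 CPM. It called 10.3% of all 20698 genes tested higher, and 1678 of the 4002 genes with at least 50 CPM. Of the 10 markers, 5 lay above 0 and 5 below, among them Pax7 at 52.9 against 71.9 CPM, which was not called. A background, taken to be even, was estimated as the reads per kb of exon in 1504 chemosensory receptor genes. It is an average, and single genes fell well below it, such as Ccnb1 and Cdc6, each with a count of 0 in FosGFP+ 2, where it gives 13.03 and 16.15. It stood at 0.818 ± 0.122 CPM per exonic kb in FosGFP+ and 1.12 ± 0.129 in FosGFP- (SD, n = 4), a log2 difference of -0.45. It was 0.615 ± 0.207 in FoscKO and 0.734 ± 0.0277 in Control (SD, n = 3), a log2 difference of -0.25.

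The replication genes were the more abundant of the 2 large roles, and many mitosis genes lay close to that background. In each group the level per exonic kb was highest for Pcna or Mcm4. Pcna stood at 24.6 ± 0.803 CPM per kb in FosGFP+ and 14.0 ± 2.11 in FosGFP- (SD, n = 4), and at 21.1 ± 5.54 in FoscKO and 20.02 ± 0.798 in Control (SD, n = 3). Mcm4 stood at 24.7 ± 10.8 and 19.3 ± 2.02, and at 20.9 ± 2.74 and 12.4 ± 1.44, in the same order. These 2 genes do not differ beyond their spread in FosGFP+ or in FoscKO. Mcm7 followed in the first dataset, at 19.1 ± 3.16 in FosGFP+ and 11.0 ± 1.02 in FosGFP-. At the other end, Gins2 and Cdc6 stood below 1 CPM per kb as a mean over the 4 groups, at 0.807 and 0.952, and Ccnb1 was the lowest mitosis gene, at 1.09. The 5 G1/S regulators ran from 2.09 for Ccne2 and E2f1 to 7.84 for Cdk2 on that scale.

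Against the count the even background would give, the median replication gene was 8.36 times as high in FosGFP+ and 4.63 times in FosGFP-. The median mitosis gene was only 2.18 and 2.34 times as high. In the second dataset the medians were 11.4 in FoscKO and 7.3 in Control for replication genes, and 6.6 and 5.29 for mitosis genes. The count that the estimate gives over the exons of the 15 mitosis genes equalled 43.0% to 53.4% of their summed counts in FosGFP+ libraries and 28.7% to 67.7% in FosGFP- libraries. For replication genes it equalled 7.32% to 15.4% and 15.4% to 22.7%. How much of these counts is background was not measured. Mki67, the proliferation marker that coats mitotic chromosomes, was at a median of 1.3 times background in FosGFP+ and 2.17 times in FosGFP-. Gins2, Cdc6 and Ccnb1 had medians below 1 in both of these groups.

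**Figure D2:**
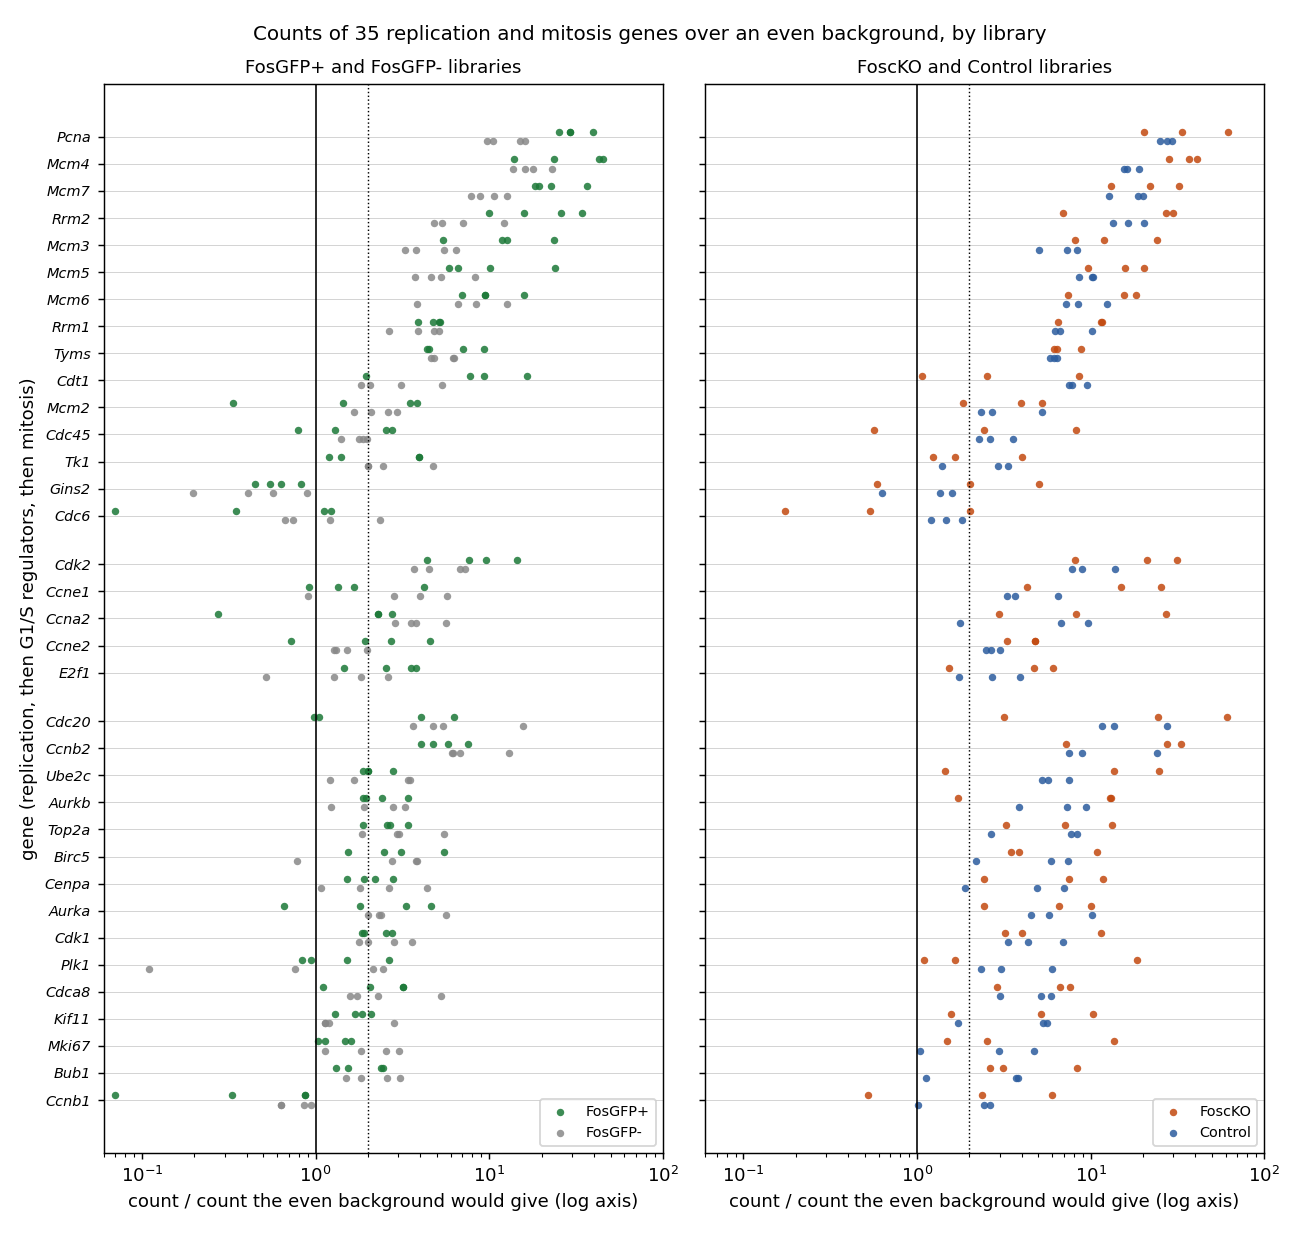
Count of each of the 35 genes divided by the count that the even background would give over its exons (log axis), with 1 point per library, for the first dataset (left) and the second (right). The solid line is at 1 and the dotted line at 2, counts of 0 are drawn at the left edge, and most mitosis genes of the first dataset lie near these lines while Pcna and Mcm4 lie far above them.

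The comparison of FosGFP+ with FosGFP- asks how cells sorted by the Fos reporter differ. Of 15 replication genes, 14 were tested and 2, Mcm7 and Pcna, were called higher in FosGFP+ by edgeR's quasi-likelihood test (Benjamini-Hochberg adjusted p under 0.05 over all 20698 genes tested), with 0 lower. Gins2 had too few counts to be tested. This count lies close to the background, since 10.3% of all genes tested were called higher and 1.85% lower. The same 2 genes had groups that did not overlap, FosGFP+ being above FosGFP-, as did 12.9% of all genes, while 6.45% did not overlap with FosGFP+ below. Of the 14, 7 had a log2 fold change above 0 and 7 below, with a median of 0.15 against -0.18 for all genes tested. Abundant genes tended to be higher: among the 4002 with at least 50 CPM the median was 0.57, and 1678 were called higher.

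Mcm7, a subunit of the replicative helicase, stood at 73.6, 104, 75.7 and 84.3 CPM in FosGFP+ libraries 1 to 4 and at 53.5, 46.5, 50.9 and 43.3 CPM in FosGFP- libraries 1 to 4. All 4 FosGFP+ libraries lay above all 4 FosGFP- libraries. The log2 fold change was 0.80 ± 0.19 (SE), with an edgeR adjusted p of 0.0114, at means of 84.4 ± 14.0 and 48.5 ± 4.52 CPM (SD, n = 4 each). Pcna stood at 59.6, 61.2, 56.6 and 58.6 CPM in FosGFP+ and at 36.5, 27.6, 38.8 and 31.4 CPM in FosGFP-. The FosGFP+ values were close together and all above the FosGFP- ones. Its log2 fold change was 0.81 ± 0.20 (SE), with an edgeR adjusted p of 0.0124. Both calls were kept when any 1 library was left out. They were lost with total counts as library sizes, at 0.39 for Mcm7 and 0.41 for Pcna, and with TMM taken from genes of at least 50 CPM, at 0.21 and 0.23.

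The other MCM subunits did not move as a block. Mcm4, a further helicase subunit and the most abundant of them, stood at 42.4, 98.8, 78.5 and 135 CPM in FosGFP+ and at 78.6, 68.3, 68.7 and 60.9 CPM in FosGFP-. FosGFP+ 1 lay below all FosGFP- libraries and FosGFP+ 2 and 4 above all of them, and the log2 fold change of 0.36 ± 0.27 (SE) was not called (edgeR adjusted p = 0.413). Mcm3 was at 1.00 ± 0.32 (SE; edgeR adjusted p = 0.0538) and Mcm5 at 0.57 ± 0.34, while Mcm6 was at -0.07 ± 0.29 and Mcm2 at -0.50 ± 0.49. In this dataset Mcm3 and Rrm2, the small subunit of ribonucleotide reductase, were near the threshold. Rrm2 had a log2 fold change of 1.04 ± 0.34 (SE; edgeR adjusted p = 0.059), at 46.5 ± 17.9 against 22.7 ± 10.2 CPM (SD, n = 4). FosGFP+ 1, at 23.6 CPM for Rrm2 and 17.4 CPM for Mcm3, lay within the FosGFP- range for both. Without that library both were called, with edgeR adjusted p of 0.00495 for Mcm3 and 0.0129 for Rrm2. Both were also called without FosGFP- 3, at 0.0469 and 0.0202. Neither was called when any other single library was left out, at 0.082 to 0.1709 for Mcm3 and 0.0636 to 0.1505 for Rrm2. Each was called in 5 of 15 alternatives. The authors' deposited table, with its direction turned round, lists Rrm2 at 1.03, Mcm3 at 1.00, Pcna at 0.88 and Mcm7 at 0.87.

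The rest of the replication genes had values on both sides of 0. Cdt1, a licensing factor, stood at 20.7, 33.4, 5.69 and 24.4 CPM in FosGFP+ and at 16.0, 11.5, 6.90 and 7.17 CPM in FosGFP-. FosGFP+ 3 was the lowest of all 8 libraries and the other 3 were above every FosGFP- library. Its log2 fold change of 1.01 ± 0.44 (SE) was not called (edgeR adjusted p = 0.156). Among the alternatives it was called only without FosGFP+ 3, at 1.37 (edgeR adjusted p = 0.0234). Cdc6, the other licensing factor, was at -1.26 ± 0.75 (SE), with a count of 0 in 1 library. The large reductase subunit gene Rrm1 was at -0.21 ± 0.25, the thymidylate synthase gene Tyms at -0.27 ± 0.23, the thymidine kinase gene Tk1 at -0.54 ± 0.41 and Cdc45 at -0.36 ± 0.47.

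Among the 5 G1/S regulators 0 were called, by edgeR, with 3 log2 fold changes above 0 and 2 below. Ccna2, which encodes cyclin A2 of S and G2 phase, stood at 0.953, 6.06, 10.52 and 7.84 CPM in FosGFP+ and at 14.7, 13.8, 24.7 and 17.9 CPM in FosGFP-. The groups did not overlap, FosGFP+ being below, as for 6.45% of all genes tested, and FosGFP+ 1 was the lowest. The log2 fold change was -1.49 ± 0.48 (SE), with an edgeR adjusted p of 0.0555, and it was called without FosGFP+ 3, at -1.77 (edgeR adjusted p = 0.043). With any other single library left out it was not called (edgeR adjusted p of 0.061 to 0.161), nor after background subtraction (0.138). Ccna2 was called in 6 of 15 alternatives. DESeq2 called it, at -1.39 (adjusted p = 0.0277), as did the authors' deposited table, which lists it at -1.15. Ccna2 shares 510 bases of exon with Exosc9 on the other strand, and the library kit keeps no strand, so reads there cannot be told apart. Ccne1, which encodes cyclin E1, stood at 9.53, 2.30, 2.28 and 3.70 CPM in FosGFP+ and at 7.13, 12.6, 16.4 and 2.99 CPM in FosGFP-, in overlapping groups (-1.13 ± 0.56, SE; edgeR adjusted p = 0.216). Cdk2, the kinase that cyclins E and A activate, stood at 51.0, 57.9, 25.3 and 40.1 CPM in FosGFP+ and at 42.8, 49.96, 30.2 and 28.7 CPM in FosGFP-. Its groups overlapped, with a log2 fold change of 0.20 ± 0.27 (SE; edgeR adjusted p = 0.66). Ccne2 was at 0.18 ± 0.47 and E2f1, a transcription factor of S phase genes, at 0.33 ± 0.50.

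All 15 mitosis genes were tested, and all 15 had a log2 fold change below 0, with a median of -0.63. The same was so of 12484 of the 20698 genes tested, whose median was -0.18. Less abundant genes lay below 0 more often than that, since only 590 of the 4002 genes with at least 50 CPM did. The mitosis genes were among the less abundant, at group means of up to 33.0 CPM, for Top2a in FosGFP-. The even background itself differed by -0.45 on the log2 scale. A share matched for abundance was not computed. Mki67 and Cdc20 were called lower and 0 were called higher, against 1.85% and 10.3% of all genes. Cdc20 and Ccnb2 had groups that did not overlap, FosGFP+ being below FosGFP-, as did 6.45% of all genes tested. Fewer cells in division and less of these RNAs per cell cannot be told apart in libraries of 1000 cells.

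Cdc20, the activator of the anaphase-promoting complex, stood at 1.67, 7.52, 1.71 and 6.32 CPM in FosGFP+ and at 27.9, 8.04, 10.9 and 11.1 CPM in FosGFP-. All FosGFP+ libraries lay below all FosGFP- ones, by little where FosGFP+ 2 met FosGFP- 2, and FosGFP- 1 was far above the rest. The log2 fold change was -1.73 ± 0.53 (SE), with an edgeR adjusted p of 0.0439. Mki67 stood at 12.6, 7.31, 9.67 and 13.5 CPM in FosGFP+ and at 24.3, 13.5, 32.5 and 22.7 CPM in FosGFP-. FosGFP+ 4 and FosGFP- 2 met, and the other FosGFP- libraries lay above all FosGFP+ ones. Its log2 fold change was -1.11 ± 0.33 (SE), with an edgeR adjusted p of 0.0372. Ccnb2, a B-type cyclin, stood at 7.63, 3.97, 10.8 and 6.10 CPM in FosGFP+ and at 18.9, 11.2, 11.2 and 11.7 CPM in FosGFP-. FosGFP+ 3 came close to the lowest FosGFP- library without reaching it, and the log2 fold change of -0.91 ± 0.38 (SE) was not called (edgeR adjusted p = 0.137). Ube2c, the ubiquitin-conjugating enzyme of the anaphase-promoting complex, stood at 6.20, 3.34, 4.55 and 4.36 CPM in FosGFP+ and at 8.47, 3.73, 9.78 and 5.38 CPM in FosGFP-. These groups overlapped, and its log2 fold change of -0.57 ± 0.44 (SE) was not called (edgeR adjusted p = 0.419).

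The other 11 mitosis genes ran from -0.92 for Ccnb1 to -0.25 for Birc5, an inhibitor of apoptosis in the chromosomal passenger complex. Top2a, the topoisomerase that untangles sister chromatids, was at -0.74 ± 0.33 (SE; edgeR adjusted p = 0.167) and the spindle checkpoint kinase gene Bub1 at -0.70 ± 0.38. The Aurora kinase genes Aurka and Aurkb were at -0.67 ± 0.51 and -0.38 ± 0.43, Cdk1 at -0.59 ± 0.34 and the Polo kinase gene Plk1 at -0.32 ± 0.66. The centromeric histone gene Cenpa was at -0.63 ± 0.37, the passenger complex gene Cdca8 at -0.59 ± 0.41 and the spindle motor gene Kif11 at -0.32 ± 0.37. None of these 11 was called. The 95% confidence intervals of the 15 had a median half-width of 0.866 on the log2 scale, and 4 of the intervals lay wholly below 0.

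**Figure D3:**
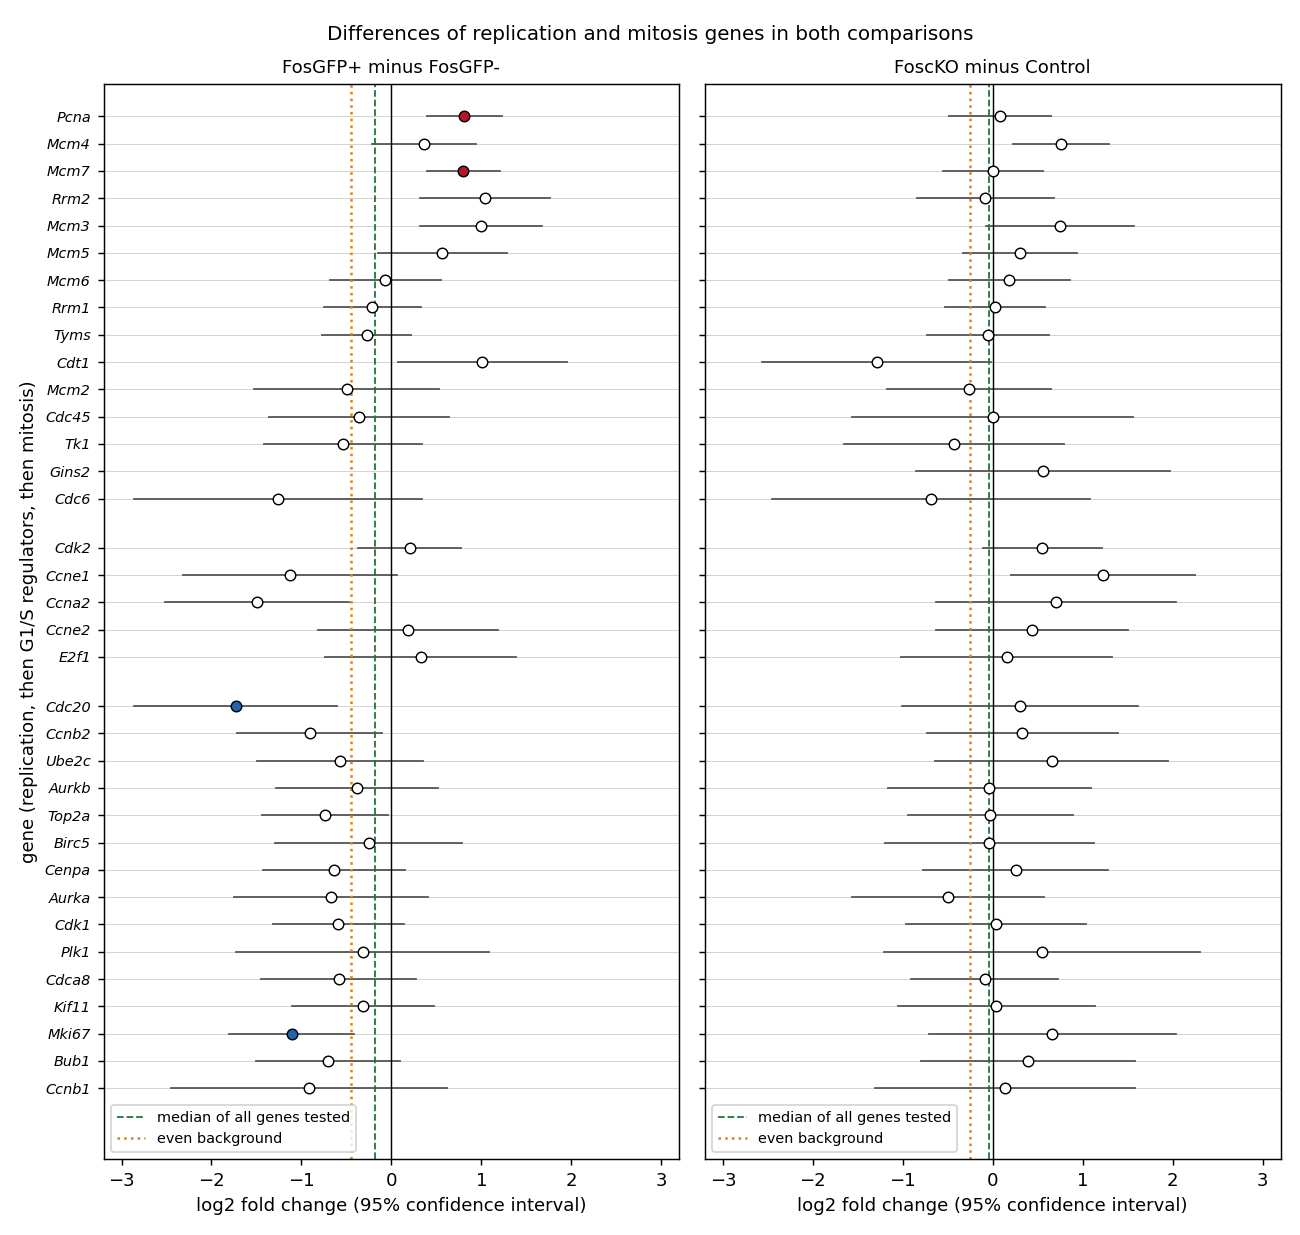
Log2 fold change of each gene with its 95% confidence interval (bars), FosGFP+ minus FosGFP- (left) and FoscKO minus Control (right). Filled points passed the test (red higher, blue lower), the dashed green line is the median of all genes tested and the dotted orange line the change of the even background. On the left all 15 mitosis genes lie below 0 and replication genes on both sides, and on the right no gene is called.

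The calls of Mki67 and Cdc20 rested on few libraries. Mki67 kept its call without FosGFP- 2 (edgeR adjusted p = 0.0227) and lost it without any 1 of the other 7 libraries, at 0.0505, 0.113, 0.0888 and 0.0511 for FosGFP+ 1 to 4 and 0.0884, 0.137 and 0.0747 for FosGFP- 1, 3 and 4. Cdc20 kept its call without FosGFP+ 2 (0.0364) or FosGFP- 2 (0.0429). It lost the call without FosGFP+ 1, 3 or 4 (0.107, 0.117 and 0.0615) and without FosGFP- 1, 3 or 4 (0.209, 0.061 and 0.0621). The direction of the mitosis genes was below 0 for 15 of 15 when any 1 FosGFP+ library was left out, and for 15, 15, 13 and 14 of 15 without FosGFP- 1, 2, 3 and 4. The authors' deposited table lists 3 of the genes as lower, Cdc20 at -1.27, Ccna2 at -1.15 and Mki67 at -0.92.

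Scaling moved both roles. With total counts the median of all genes shifted by -0.40, that of the replication genes came to -0.27 and that of the mitosis genes to -1.04. With TMM from genes of at least 50 CPM the shift was -0.58 and the medians were -0.46 and -1.22. Both scalings lower all genes together, so that they cannot test whether genes already below 0 stay there. After the even background was subtracted, 13 mitosis genes could be tested and all 13 lay below 0, with a median of -0.95 and 0 called by edgeR. Subtraction shifted the 15645 genes compared by a median of -0.19. It too is therefore not a clear test of whether genes already below 0 stay there. After subtraction Cdc20 was at -2.38 (edgeR adjusted p = 0.2) and Mki67 at -2.44 (0.119). Mcm7 kept its call at 0.64 (0.0371), and Pcna lost it at 0.64 (0.0558).

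Summed over the 15 replication genes, libraries 1 to 4 held 393, 624, 513 and 549 CPM in FosGFP+ and 437, 383, 412 and 388 CPM in FosGFP-. FosGFP+ 1 lay within the FosGFP- range and the other 3 above it. Summed over the 15 mitosis genes, they held 122, 94.2, 119 and 133 CPM in FosGFP+ and 226, 119, 229 and 192 CPM in FosGFP-. FosGFP- 2 lay within the FosGFP+ range and the other 3 above it. The replication sum was 3.23 to 6.63 times the mitosis sum in FosGFP+ and 1.80 to 3.21 times in FosGFP-. Markers of other cells differed between the groups in both directions. Summed over 10 leukocyte markers the level was 59.1 to 104 CPM in FosGFP+ and 92.6 to 164 CPM in FosGFP-, over 10 endothelial markers 194 to 230 and 219 to 330 CPM, and over 9 fibro-adipogenic markers 306 to 679 and 525 to 1007 CPM. Of 5 erythroid markers, Hba-a1 and Hba-a2 were at 0 in every FosGFP+ library, and the sums were 2.56 to 5.22 and 1.73 to 7.35 CPM. Over 8 fibre markers they were 682 to 1446 and 697 to 935 CPM, with 8 of 8 above 0 and a median of 0.40. Over 6 mural markers they were 384 to 541 and 159 to 612 CPM, and over 5 Schwann cell markers 26.0 to 49.4 and 33.1 to 49.9 CPM. Of the markers tested, 9 of 9 endothelial lay below 0 (median -0.62), as did 7 of 8 fibro-adipogenic (-0.89) and 5 of 7 leukocyte markers (-0.20). Of mural markers 4 of 6 lay below 0 (-0.23) and of Schwann cell markers 2 of 3 (-0.55). The endothelial, fibro-adipogenic and mural lists each had 1 marker called lower by edgeR, against 1.85% of all genes. FosGFP- libraries 1 to 4 held 330, 294, 253 and 219 CPM of endothelial markers and 749, 854, 1007 and 525 CPM of fibro-adipogenic markers. FosGFP- 3, with the highest mitosis sum, had the highest fibro-adipogenic sum. FosGFP- 1, with the second highest mitosis sum, had the highest endothelial sum. FosGFP- 2, with the lowest mitosis sum, had the second highest of both, and FosGFP- 4 had the lowest of both. The part of these cells in the mitosis values was not tested.

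**Figure D4:**
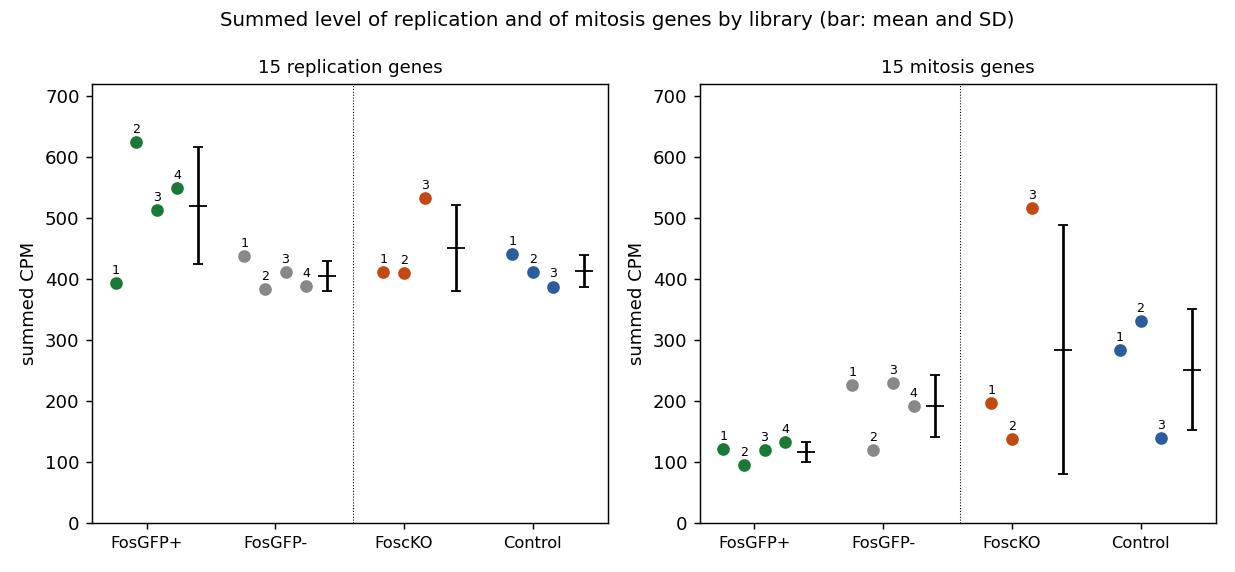
Summed CPM of the 15 replication genes (left) and of the 15 mitosis genes (right) in each library, with the replicate number above each point and the mean and SD of each group as a bar. FosGFP+ libraries lie at 94.2 to 133 CPM for mitosis genes against 119 to 229 in FosGFP-, and FoscKO 3 stands at 517 CPM. The dotted line parts the datasets, which were scaled separately.

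Further genes of the same processes are read against the 10.3% of all genes called higher, the 1.85% called lower and the 12484 of 20698 below 0. These shares are not matched for abundance. Of 42 other replication genes 41 were tested, of which 1 was called higher and 1 lower, with 14 log2 fold changes above 0 and 27 below (median -0.38). Slbp, whose product binds the stem-loop of histone mRNAs, rose to 137 ± 17.8 from 74.0 ± 10.1 CPM (SD, n = 4), with a log2 difference of 0.89 (edgeR adjusted p = 0.00427). Mcm10, a helicase cofactor, fell to 13.2 ± 2.39 from 25.1 ± 2.86 CPM, a change of -0.93 (edgeR adjusted p = 0.0303). Of 50 other mitosis genes 47 were tested, of which 1 was called higher and 3 lower, with 5 above 0 and 42 below (median -0.63). Those called lower were Spc25, of the kinetochore Ndc80 complex, at -1.25 (edgeR adjusted p = 0.0403), Anln, which encodes the cytokinesis protein anillin, at -1.03 (0.0426), and Prc1, which bundles midzone microtubules, at -0.85 (0.0271). Ccnf, which encodes cyclin F, a substrate receptor of an SCF ubiquitin ligase, went the other way, to 70.1 ± 20.9 from 18.8 ± 8.84 CPM (SD, n = 4). Its log2 fold change was 1.89, with an edgeR adjusted p of 0.00164. Of 21 other control genes tested, 1 was called higher, the pocket protein partner E2f5 at 0.72 (edgeR adjusted p = 0.039), and 0 lower.

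The comparison of FoscKO with Control asks what loss of Fos changes in such cells. By edgeR 0 of the 35 genes were called in either direction, as were 0% of the 21885 genes tested, both higher and lower. At an unadjusted p under 0.05 there were 3 of the 35, Mcm4, Cdt1 and Ccne1, and 1208 of all genes. DESeq2 called 40 genes higher and 29 lower, with 0 of the 35 among them, and the authors' deposited table of 69 genes lists 0 of them. Groups did not overlap for 1 replication gene with FoscKO above and 1 with FoscKO below, against 5.75% and 6.47% of all genes.

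The 2 genes without overlap went in opposite directions. Mcm4 stood at 65.8, 85.4 and 73.9 CPM in FoscKO libraries 1 to 3 and at 49.6, 39.3 and 44.2 CPM in Control libraries 1 to 3. All FoscKO libraries were above all Control libraries, and the log2 fold change of 0.76 ± 0.25 (SE) was not called (edgeR adjusted p = 0.705). Cdt1 stood at 1.49, 6.71 and 15.03 CPM in FoscKO and at 21.9, 17.3 and 18.1 CPM in Control. FoscKO was below Control, with FoscKO 1 the lowest and FoscKO 3 near the Control libraries, and the log2 fold change of -1.29 ± 0.60 (SE) was not called (edgeR adjusted p = 0.894). Without FoscKO 3 it was -2.25 (edgeR adjusted p = 0.758), and without FoscKO 1 -0.79 (adjusted p = 1.0).

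Mcm7 and Pcna, called in the first dataset, were near 0 in the second. Mcm7 stood at 63.5, 49.0 and 54.2 CPM in FoscKO and at 60.7, 62.5 and 42.8 CPM in Control, in overlapping groups. Its log2 fold change was 0.01, with a 95% confidence interval from -0.55 to 0.56. Pcna stood at 65.9, 41.2 and 45.1 CPM in FoscKO and at 48.5, 49.7 and 45.9 CPM in Control. FoscKO 1 was the highest and the other 2 the lowest, with a log2 fold change of 0.08 and an interval from -0.49 to 0.65. The other replication genes lay between -0.69 for Cdc6 and 0.75 for Mcm3, with 8 of 15 above 0 and a median of 0.01, against -0.04 for all genes tested.

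The 5 G1/S regulators were all above 0, from 0.15 for E2f1 to 1.23 for Ccne1, with 0 called. Above 0 lay also 10369 of all 21885 genes tested. Ccne1 stood at 30.0, 9.69 and 22.2 CPM in FoscKO and at 7.12, 6.21 and 13.2 CPM in Control. FoscKO 2 lay within the Control range and the other 2 above it (1.23 ± 0.48, SE; edgeR adjusted p = 0.821). Cdk2 stood at 86.6, 42.7 and 73.2 CPM in FoscKO and at 40.5, 60.9 and 36.8 CPM in Control, again with FoscKO 2 within the Control range. Its log2 fold change was 0.55 ± 0.31 (SE; edgeR adjusted p = 0.914). Ccna2 stood at 14.99, 10.3 and 61.8 CPM in FoscKO and at 20.04, 28.0 and 5.54 CPM in Control. FoscKO 3 was the highest and Control 3 the lowest, and the log2 fold change of 0.71 ± 0.62 (SE) was -0.49 without FoscKO 3. Without FoscKO 3, 3 of the 5 were above 0, and 4 were without Control 2, with total counts and with TMM from genes of at least 50 CPM.

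In the second dataset 1 library stood apart in its mitosis genes. FoscKO 3 was the highest of the 6 libraries for 14 of the 15, all but Aurka, at a median of 2.36 times the median of the other 5. Mki67 stood at 11.3, 12.7 and 76.0 CPM in FoscKO and at 21.9, 33.5 and 7.98 CPM in Control. Cdc20 stood at 20.3, 5.03 and 63.0 CPM in FoscKO and at 18.7, 36.6 and 16.6 CPM in Control. In both, FoscKO 3 was far above the rest and the other libraries of the groups overlapped. Ccnb2 stood at 18.6, 9.32 and 28.4 CPM in FoscKO and at 9.93, 26.1 and 8.80 CPM in Control, with FoscKO 3 and Control 2 close together at the top. Ube2c stood at 15.7, 3.17 and 35.95 CPM in FoscKO and at 9.93, 13.8 and 11.2 CPM in Control, with FoscKO 2 the lowest. Summed over the 15 genes the libraries held 197, 137 and 517 CPM in FoscKO and 283, 332 and 140 CPM in Control.

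With all libraries 10 of the 15 mitosis genes lay above 0, with a median of 0.14. Without FoscKO 3 all 15 lay below 0, with a median of -0.64, and without FoscKO 2 14 lay above 0, with a median of 0.53. Without Control 3, the lowest library for 7 of the 15, the median was -0.15, with 6 above 0. With total counts it was -0.05 and with TMM from genes of at least 50 CPM it was -0.07, with 7 above 0 in each, where all genes shifted by a median of -0.18 in both. In none of these settings was a mitosis gene called by edgeR. Mki67 was at 0.66 ± 0.64 (SE; edgeR adjusted p = 0.917) with all libraries and at -0.82 without FoscKO 3, and Cdc20 was at 0.30 ± 0.61 (edgeR adjusted p = 0.956) and -0.90. The 95% interval of Mki67 ran from -0.71 to 2.04, that is, from a fold of 0.61 to one of 4.1.

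**Figure D5:**
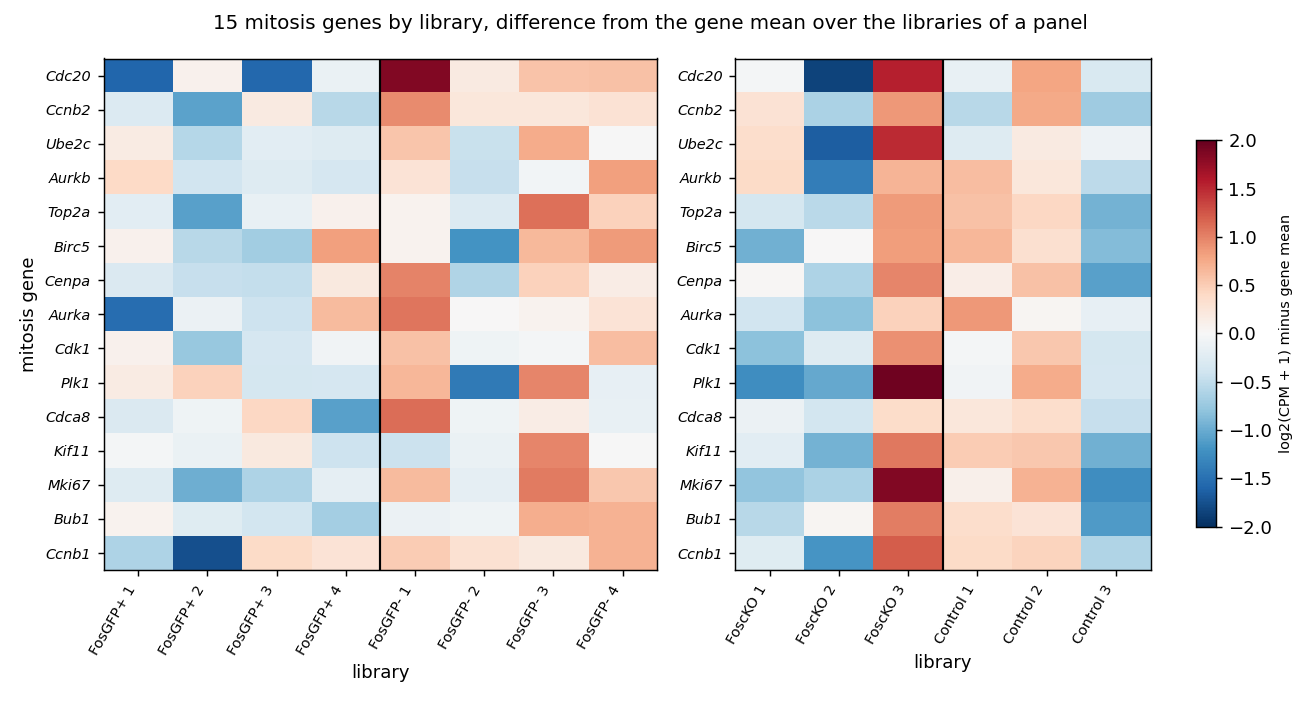
Level of the 15 mitosis genes in each library as log2(CPM + 1) minus the mean of the gene over the libraries of the panel (colour, log2 scale), for the first dataset (left) and the second (right), with a line between the groups. FoscKO 3 is the highest of its panel for 14 of the 15 genes, and in the left panel no FosGFP+ library is the highest for any of them.

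FoscKO 3 was also the highest library over the other mitosis genes, but not over other replication or control genes. Over 50 other mitosis genes it held 1592 CPM against 740 to 1128 CPM in the other 5 libraries. Over 42 other replication genes it held 1008 CPM against 889 to 1030 CPM, and over 22 other control genes 721 CPM against 536 to 755 CPM, with FoscKO 1 the highest in both. Over the 15 replication genes it held 533 CPM against 388 to 441 CPM, and was the highest for 5 of them. Over 10 satellite cell markers it held 7397 CPM, over 10 leukocyte markers 75.1 CPM and over 10 endothelial markers 196 CPM, each within the range of the other 5 libraries. Erythroid markers were at 1.08 CPM, the lowest of the 6, and Schwann cell markers at 40.8 CPM, the highest. Fibre markers stood at 1367 CPM in FoscKO 3. Between the groups their sums were 507 to 1707 CPM in FoscKO and 1478 to 3162 CPM in Control, with 8 of 8 below 0, a median of -1.23 and 3 without overlap, and 0 called by edgeR. Of all 21885 genes tested, 11516 lay below 0, and 6.47% had FoscKO below Control without overlap. The gene count of FoscKO 3, at 8615332, was the second highest of the series. The part of any of these in its mitosis values was not tested. Of the further lists, 0 of 41 other replication, 0 of 49 other mitosis and 0 of 22 other control genes tested were called by edgeR.

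In GRCm38 (GENCODE M21), Mcm7 (ENSMUSG00000029730) lies on chromosome 5 from 138164583 to 138172422 and shares 321 and 64 bases of exon with Ap4m1 and Cops6 on the other strand. Pcna (ENSMUSG00000027342) lies on chromosome 2 from 132249162 to 132253314, and its 2 processed pseudogenes held at most 12 counts in a library against 96 to 488 for Pcna. Mcm4 (ENSMUSG00000022673) lies on chromosome 16 from 15623897 to 15637400 and Cdt1 (ENSMUSG00000006585) on chromosome 8 from 122568015 to 122573554. Mki67 (ENSMUSG00000031004) lies on chromosome 7 from 135689784 to 135716361. Cdc20 (ENSMUSG00000006398) lies on chromosome 4 from 118432901 to 118437352 and shares 53 bases of exon with Elovl1 on the other strand. Ccna2 (ENSMUSG00000027715) lies on chromosome 3 from 36564865 to 36572150. Ube2c shares 592 bases of exon with Tnnc2 on the other strand. Tnnc2 held 17 to 54 counts in the first dataset, against 13 to 38 for Ube2c. In the second dataset it held 16 to 194, against 17 to 299 for Ube2c. Ccnb2 (ENSMUSG00000032218) lies on chromosome 9 from 70407692 to 70421547, and its pseudogene held 6 to 38 counts against 19 to 236 for Ccnb2. Reads of overlapping exons and of near-identical copies may have been split or dropped in the counting, so these genes carry that uncertainty.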

How the data were processed

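The labels' protocols name SMART-Seq v4 amplification, which keeps no strand, Nextera XT tagging and HiSeq sequencing. In the submitters' processing notes stand the build GRCm38, limma, DESeq2 1.20.0, HTSeq 0.6.1 and STAR 2.5.0c, with no role given. The authors deposited a table of raw counts per Ensembl gene for each dataset. They also deposited tables of their own comparisons with log2 fold changes and adjusted p-values, of opposite sign to those used here and turned round. A further 14 columns of per-library values match no label and were not used.

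Each dataset was fitted alone with edgeR 4.0.16 in R 4.3.3 (filterByExpr, TMM, robust quasi-likelihood F-test, two-sided, no covariate). Benjamini-Hochberg adjusted p-values under 0.05 over all genes tested were called. Levels are CPM on TMM library sizes, and exonic lengths came from GENCODE M21. The fit was also run on simulated counts, in which changed genes had a mean of at least 5 CPM. No difference in scaling or background was built in, so that run cannot speak for less abundant genes or the choice of scaling. Precision is limited by 3 or 4 libraries a group and by low counts. Alternatives were other scalings, subtraction of the even background, each library left out, no filter, a replicate block and DESeq2 1.42.0.

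The genes and the further lists were chosen with earlier results of these data known. Values by library are given for genes called or without overlap between groups (mean of at least 1 CPM) and for the 3 most abundant per kb of each role. A gene so chosen is shown in both datasets. Of the further lists, called genes are named. Replicate numbers were not taken as pairs, since deviations of same-numbered libraries correlated at -0.015 to 0.0206 in the first dataset and -0.0135 to 0.125 in the second.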

Additional observations from a re-analysis of the deposited data

Results flagged for a closer look

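In groups of 4 libraries, 28 values were examined for a library far from the other 3, of which chance alone flags about 1 in 20, and 2 stood out. Both lie in FosGFP- 1. Cdc20 stood at 27.85 CPM there against 8.04 to 11.1 CPM in the other FosGFP- libraries, and Ccnb2 at 18.93 CPM against 11.2 to 11.7 CPM. Without that library the log2 fold change of Cdc20 was -1.18 (edgeR adjusted p = 0.209) and that of Ccnb2 was -0.67 (0.355). Groups of 3 libraries, FoscKO 3 among them, were not examined in this way.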

How the results depend on the processing

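Between FosGFP+ and FosGFP-, 2 of the genes were called higher and 2 lower, of 2125 and 383 over all genes. With DESeq2 size factors 1 was lower. With total counts 0 were higher and 5 lower (1005 and 2243 over all genes), with TMM from genes of at least 50 CPM 0 and 11 (722 and 5252), and after background subtraction 1 and 0 (1309 and 258). Without a filter and with DESeq2, 4 were higher. Leaving out 1 library gave 2 to 4 higher and 0 to 2 lower (1689 to 2202 and 184 to 364 over all genes). With the replicate block, which the check of the numbers does not bear out as a pairing, 3 were higher and 2 lower (2002 and 278), with different members: Rrm2 (adjusted p = 0.0336) and Ccna2 (0.0324) gained a call and Cdc20 (0.086) lost it. Mki67 and Cdc20 were each called in 6 of 15 alternatives, Mcm7 in 13 and Pcna in 12. Of calls over all genes 84.7% were higher, against 30.9% with total counts and 12.1% with TMM from genes of at least 50 CPM. Between FoscKO and Control, 0 of the 35 were called in any alternative. Over all genes, 0 higher and 0 lower became 12 and 33 with total counts, 11 and 32 with TMM from genes of at least 50 CPM, 3 and 14 after subtraction, 85 and 46 without a filter, 40 and 29 with DESeq2 and 23 and 20 with the replicate block. Leaving out 1 library gave 0 to 16 higher and 0 to 27 lower. With the block, 10 of 15 mitosis genes lay below 0 there, with a median of -0.12. Depth limits Gins2, Ccnb1, Cdc6 and Plk1, whose lowest counts in a library of the first dataset were 0 to 3.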
